A study of Rattus norvegicus with 20 samples.

Results

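The 8 genes described here are 7 genes of the smooth muscle contractile apparatus, Acta2, Actg2, Myh11, Myl9, Tagln, Cnn1 and Des, together with Tnnt2, the cardiac troponin T. They were measured in the ovaries of young adult rats whose mothers had eaten brominated flame retardants. Members were found through the transcript that the array files give for each probe, matched to rat gene symbols, which gave 10 probes for 8 of the 12452 named genes that passed the filter on dim probes. Actg2 and Myh11 had 2 probes each and the other genes 1. Tnnt2 was chosen by its higher level at 20 and 60 mg/kg/day against 0, so these differences are a description and carry no test. The earlier results also included higher smooth muscle genes at 20 mg/kg/day, so the dose differences of the other 7 genes are described in the same way.

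Smooth muscle shortens when heads of Myh11 myosin, switched on through its regulatory light chain Myl9, pull on filaments of the actins Acta2 and Actg2. Tagln and Cnn1 bind those filaments, and Des forms the intermediate filaments that tie the cell's contractile units together. Smooth muscle works without troponin, and Tnnt2 belongs to the calcium switch of striated muscle, where it fixes the troponin complex to tropomyosin in the heart. In the ovary, smooth muscle cells lie in vessel walls, in the stroma and in the outer theca around follicles.

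Dams of the Sprague-Dawley strain received the mixture in their food from at least 1 week before mating to weaning on postnatal day 21, and 1 daughter per array, from independent litters, was killed at 46 days of age. Polybrominated diphenyl ethers made up most of it, with DE-71 at 52.1%, BDE-209 at 44.2% and DE-79 at 0.4%, and the rest, 3.3%, was hexabromocyclododecane. The control diet held none of it, and 5 arrays carried its group, 0 mg/kg/day. Food with 0.75 mg/kg was designed to give the dam 0.06 mg/kg/day (4 arrays), food with 250 mg/kg to give 20 mg/kg/day (5 arrays) and food with 750 mg/kg to give 60 mg/kg/day (6 arrays). Doses are therefore intended doses of the mother, and the daughters had been without the diet since weaning.

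RNA came from whole frozen ovaries, and levels are log2 of the background-corrected spot intensity minus the array's 75th percentile, so that 0 is the brightness of that percentile. All 10 probes were well above background on all 20 arrays. The arrays lay on 3 slides of 7, 6 and 7 arrays, each holding all 4 groups. Granulosa, theca and luteal genes were present, with 6 of 6 genes on the array past the filter in each list. On 5 arrays Cyp17a1, with which theca cells make androgens, stood apart at -3.52 to -2.62, while it lay at 1.71 to 3.86 on the other 15. These were control replicate 3, replicate 1 at 0.06 mg/kg/day, replicates 2 and 5 at 20 and replicate 5 at 60, and the main values are also given without them. In whole tissue, more cells of a type and more RNA per cell cannot be told apart.

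The upstream sequence of Acta2, the gene whose level the others are set against below, and that of the first listed start of Tnnt2 are shown to set the regulatory regions of the 2 genes side by side. Each is the 250 bases before the transcription start in RefSeq's annotation of GRCr8. Capitals mark CArG-like boxes in Acta2, which are binding motifs of serum response factor, and the M-CAT motif CATTCCT, a TEAD factor motif, in both.
Acta2, chr1:241172504-241172753, minus strand: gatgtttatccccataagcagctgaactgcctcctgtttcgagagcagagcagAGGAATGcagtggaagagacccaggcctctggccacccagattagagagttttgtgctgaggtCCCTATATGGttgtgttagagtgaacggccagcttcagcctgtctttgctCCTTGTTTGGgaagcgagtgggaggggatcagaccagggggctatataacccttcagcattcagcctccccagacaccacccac
Tnnt2, chr13:49818873-49819122, plus strand: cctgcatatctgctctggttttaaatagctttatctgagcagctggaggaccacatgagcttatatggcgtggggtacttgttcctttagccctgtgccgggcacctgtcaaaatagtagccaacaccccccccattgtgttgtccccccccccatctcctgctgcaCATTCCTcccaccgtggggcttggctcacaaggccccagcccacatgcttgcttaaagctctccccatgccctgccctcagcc

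Both motifs were searched on both strands. A strict CArG box, CC then 6 bases that are each A or T then GG, was in 0 of the 6 promoter entries of the members and in 1.5% of 33469 rat promoters. With 1 C or G allowed among the 6 central bases, Acta2 held 2 boxes, starting 134 and 84 bases upstream, and 6.84% of all promoters held at least 1. The M-CAT motif began 197 bases upstream in Acta2, on the opposite strand, and 83 bases upstream in Tnnt2, against 4.35% of all promoters. Actg2, Cnn1, Des and a second listed start of Tnnt2 held none of these letters within 250 bases, and no entry was used for Myh11, Tagln and Myl9. These matches describe the letters only.

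The 7 smooth muscle genes stood higher at 20 mg/kg/day than in controls, by 0.19 to 0.47 log2, and near the controls at 0.06 and, apart from Myl9, at 60. Tnnt2 stood higher at both 20 and 60 mg/kg/day, by 0.62 and 0.63. The 3 comparisons with 0 share the 5 control arrays. limma with Benjamini-Hochberg adjustment over 23258 probes called 0 member probes at any dose, against a background of 0.0% of all probes at 0.06, 0.0% at 20 and 0.0% at 60 mg/kg/day. At an unadjusted p under 0.05, 710, 1066 and 1464 of all probes passed in these comparisons. The doses compared with each other gave 0 member probes too, against 0.0% for 20 against 0.06, 0.0% for 60 against 0.06 and 0.0% for 60 against 20 mg/kg/day, with 658, 565 and 1320 probes at the unadjusted level.

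**Figure D1:**
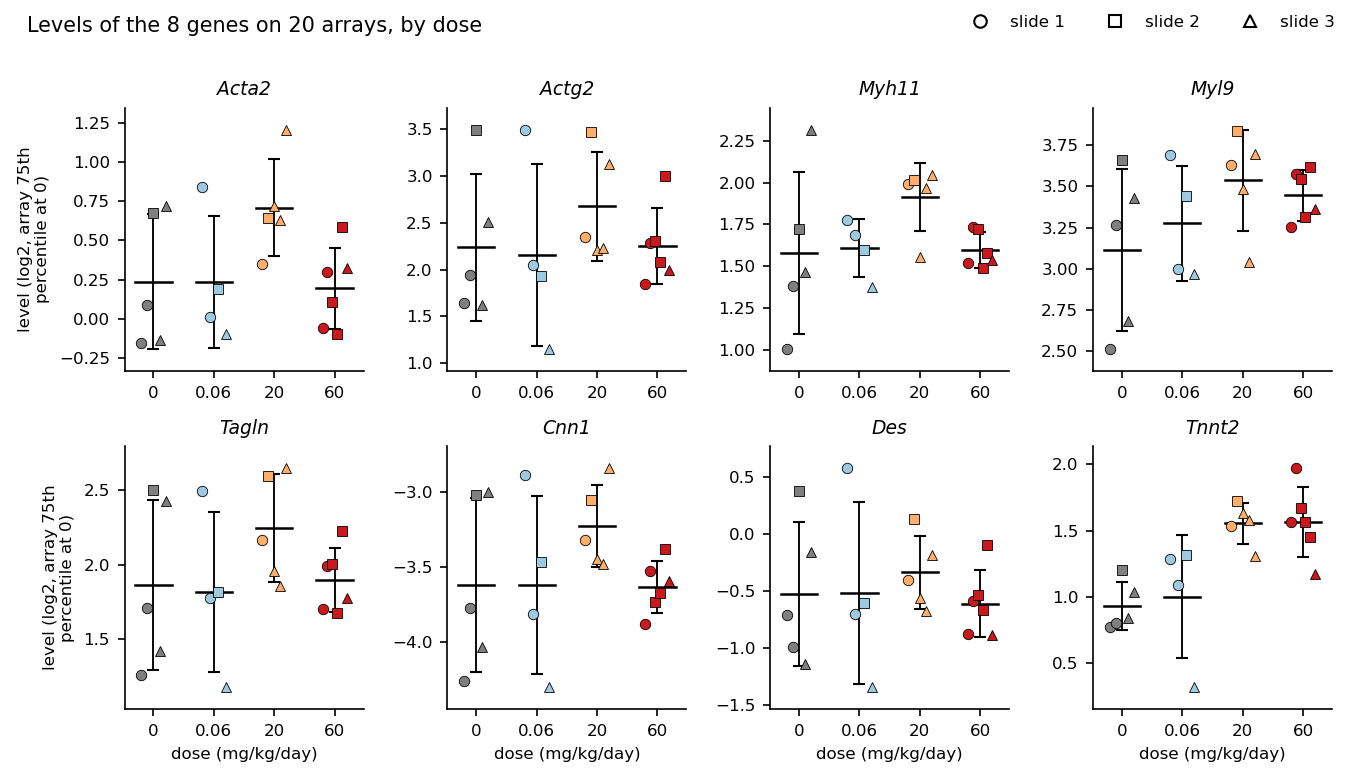
Log2 level of each gene (y axis, array 75th percentile at 0) by dose in mg/kg/day (x axis), 1 point per array, with the slide as the symbol and the mean ± SD of each dose as lines. Tnnt2 was chosen by its higher level at 20 and 60 mg/kg/day. It lay at 1.31 to 1.73 at 20, above all 5 controls at 0.77 to 1.21. At 60 it lay at 1.17 to 1.97 and overlapped with the controls, and the smooth muscle genes overlapped between doses.

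Among the thin filament genes, Acta2, the alpha actin of vascular smooth muscle, lay at -0.16, 0.09, 0.68, -0.14 and 0.72 in controls and at 0.84, 0.01, 0.19 and -0.10 with 0.06 mg/kg/day. Its levels were 0.35, 0.64, 0.72, 0.63 and 1.21 with 20 mg/kg/day and -0.10 to 0.59, with a median of 0.20, with 60. Every array at 20 mg/kg/day exceeded the control median, but only 1 of 5 exceeded all controls, so the groups overlapped. The mean was higher by 0.47 ± 0.22 (SE) at 20 mg/kg/day, and differed from 0 by -0.00 ± 0.23 at 0.06 and -0.04 ± 0.21 at 60. The means at 0, 0.06 and 60 mg/kg/day, 0.24, 0.24 and 0.19, lay within the SD of each group, and that at 20 was 0.71 ± 0.31 (SD, n = 5).

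Actg2, the gamma actin of visceral smooth muscle, spread more widely. Its brighter probe lay at 1.64, 1.94, 3.50, 1.62 and 2.50 in controls, at 3.49, 2.05, 1.93 and 1.15 with 0.06 mg/kg/day, at 2.35, 3.47, 2.20, 2.23 and 3.13 with 20 and at 1.84 to 3.00, median 2.18, with 60. The 2 highest values, 3.50 and 3.49, came from a control and from the lowest dose. The range over 20 arrays was 5.09-fold, and no array at any dose exceeded the highest control. The difference from 0 was 0.44 ± 0.41 at 20 mg/kg/day and 0.01 ± 0.39 at 60, and the second probe gave 0.44 and 0.01.

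Of the thick filament genes, Myh11, the smooth muscle myosin heavy chain, lay by its brighter probe at 1.01, 1.38, 1.72, 1.47 and 2.32 in controls and at 1.77, 1.69, 1.60 and 1.37 with 0.06 mg/kg/day. The levels were 1.99, 2.02, 1.55, 1.97 and 2.05 with 20 mg/kg/day and 1.49 to 1.73, median 1.56, with 60. Controls held both the lowest and the highest value of all 20 arrays, and the SD was 0.11 at 60 mg/kg/day against 0.49 in controls. The difference from 0 was 0.34 ± 0.17 with 20 mg/kg/day and 0.02 ± 0.17 with 60, and the dimmer probe gave 0.30 ± 0.18 and 0.09 ± 0.17.

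Myl9, the regulatory light chain, was the smooth muscle gene with the largest difference at 60 mg/kg/day. It lay at 2.51, 3.27, 3.66, 2.69 and 3.43 in controls, at 3.69, 3.00, 3.44 and 2.97 with 0.06 mg/kg/day, at 3.63, 3.84, 3.48, 3.04 and 3.70 with 20 and at 3.26 to 3.62, median 3.45, with 60. None of the 6 arrays at 60 mg/kg/day exceeded the highest control, and 5 of 6 exceeded the control median. Against 0 the difference was 0.16 ± 0.22 with 0.06 mg/kg/day, 0.43 ± 0.21 with 20 and 0.33 ± 0.20 with 60.

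The levels of the actin-binding pair varied closely together, as given below. Tagln, transgelin, lay at 1.26, 1.71, 2.50, 1.43 and 2.43 in controls, at 2.49, 1.78, 1.82 and 1.18 with 0.06 mg/kg/day, at 2.16, 2.59, 1.96, 1.85 and 2.65 with 20 and at 1.68 to 2.23, median 1.88, with 60. Cnn1, calponin 1, which restrains actomyosin, lay at -4.26, -3.77, -3.02, -4.04 and -3.00 in controls, at -2.89, -3.82, -3.47 and -4.30 with 0.06 mg/kg/day, at -3.32, -3.06, -3.45, -3.48 and -2.84 with 20 and at -3.88 to -3.38, median -3.64, with 60. For both genes, all 5 arrays at 20 mg/kg/day exceeded the control median and the groups overlapped. The differences at 20 mg/kg/day against 0 were 0.38 ± 0.26 for Tagln and 0.39 ± 0.26 for Cnn1, and those at 60 were 0.03 ± 0.25 and -0.01 ± 0.25.

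Des, the muscle intermediate filament, lay at -0.72, -0.99, 0.37, -1.14 and -0.16 in controls and at 0.58, -0.71, -0.60 and -1.34 with 0.06 mg/kg/day. Its levels were -0.41, 0.13, -0.56, -0.68 and -0.18 with 20 mg/kg/day and -0.89 to -0.10, median -0.63, with 60. The 4 groups overlapped, and both ends of the range over all arrays came from the lowest dose. The difference at 20 mg/kg/day, 0.19 ± 0.31, was the smallest of the 7 genes, and that at 60 was -0.08 ± 0.30.

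Tnnt2 followed another order of doses. It lay at 0.77, 0.81, 1.21, 0.84 and 1.04 in controls, at 1.28, 1.09, 1.32 and 0.32 with 0.06 mg/kg/day, at 1.54, 1.73, 1.63, 1.58 and 1.31 with 20 and at 1.17 to 1.97, median 1.57, with 60. All 5 arrays at 20 mg/kg/day and 5 of 6 at 60 exceeded every control. The share of all probes that lie above the controls in this way was not counted, and limma called 0.0% of probes in both comparisons. The means were 0.93 ± 0.18 (SD, n = 5) in controls, 1.00 ± 0.47 (n = 4) with 0.06 mg/kg/day, 1.56 ± 0.15 (n = 5) with 20 and 1.57 ± 0.26 (n = 6) with 60. Neither 0 and 0.06 nor 20 and 60 differed beyond their spread, while the step between the 2 pairs was 1.54-fold at 20 and 1.55-fold at 60 against 0. Replicate 5 at 0.06 mg/kg/day, at 0.32, was the lowest of all 20 arrays, and without it the difference at that dose was 0.30 in place of 0.07 ± 0.18.

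At 60 against 20 mg/kg/day all 7 smooth muscle genes were lower, by -0.52 to -0.09 with a median of -0.35, in a background where 36.2% of all probes stood above 0 and the median probe was at -0.05. Single differences had wide errors, at -0.52 ± 0.21 for Acta2, -0.43 ± 0.39 for Actg2, -0.27 ± 0.30 for Des and -0.09 ± 0.20 for Myl9. Over the 15 arrays with Cyp17a1 above 0, which leave out 2 of 5 arrays at 20 mg/kg/day and 1 of 6 at 60, 6 of 7 were lower, from -0.45 for Acta2 to 0.03 for Myl9, and the median was -0.17. Tnnt2 differed by 0.01 ± 0.16 at 60 against 20, and whether it differed there from the smooth muscle genes was not tested. Its differences from 0 were 0.49 ± 0.16 at 20 and 0.62 ± 0.14 at 60 mg/kg/day once the mean of the 7 smooth muscle genes was in the fit. The median of the 7 at 20 mg/kg/day against 0 was 0.39, and 7 of 7 stood above 0, while 57.9% of all probes did. At 60 against 0 the median was 0.01 with 4 of 7 above 0, and at 0.06 it was -0.00 with 3 of 7. Of all probes, 39.7% stood above 0 at 60 and 43.6% at 0.06.

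**Figure D2:**
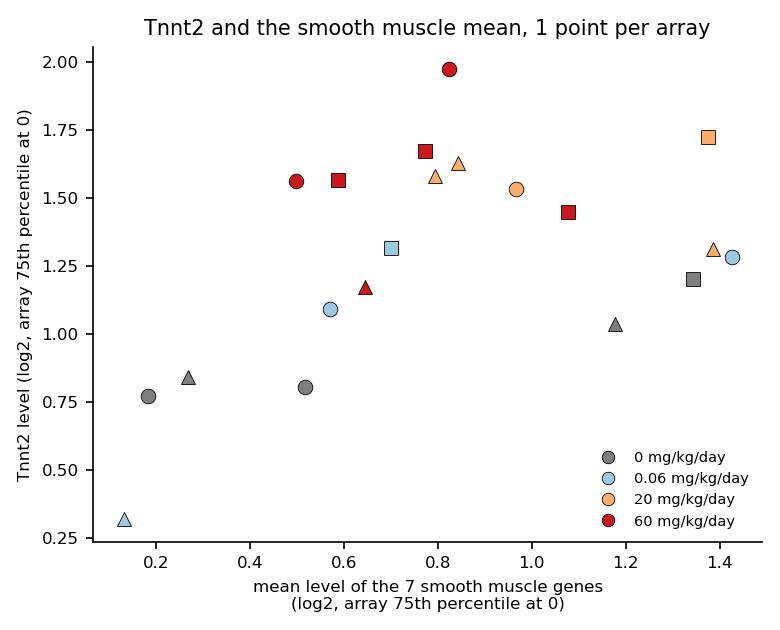
Tnnt2 level (y axis) against the mean level of the 7 smooth muscle genes (x axis), both log2 with the array 75th percentile at 0, 1 point per array, coloured by dose; circles, squares and triangles are slides 1, 2 and 3. Points of 20 and 60 mg/kg/day lie at 1.17 to 1.97 on the Tnnt2 axis and at 0.50 to 1.39 on the other. Over all arrays the smooth muscle mean runs from 0.13 to 1.43.

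Slide was tested as a technical grouping, and limma's F test called 4454 of 23258 probes, 19.2%, for it. None of the 10 member probes passed, with adjusted p from 0.176 for Tnnt2 to 0.872 for the brighter Myh11 probe. In raw means, not adjusted for dose, slide 2 had the highest values of 5 smooth muscle genes and of Tnnt2. It held 3 arrays at 60 mg/kg/day and 1 of each other group. Control replicate 3, replicate 2 at 20 and replicate 5 at 60 mg/kg/day, all low in Cyp17a1, lay on it. Tnnt2 averaged 1.29 ± 0.44, 1.49 ± 0.20 and 1.13 ± 0.45 (SD) on slides 1, 2 and 3 with 7, 6 and 7 arrays. The smooth muscle mean was 0.71 ± 0.40, 0.98 ± 0.34 and 0.75 ± 0.45.

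Within slides, Tnnt2 kept the direction of its difference. It was higher by 0.75, 0.52 and 0.57 on slides 1, 2 and 3 at 20 mg/kg/day against 0. At 60 against 0 it was higher by 0.98, 0.36 and 0.23. Slides 1, 2 and 3 held 2, 1 and 2 controls, 1, 1 and 3 arrays at 20 and 2, 3 and 1 at 60. On slide 2 the difference at 20 sets 1 array against 1, and the slides split the arrays whose differences chose Tnnt2. Fitting slide as a block gave Tnnt2 differences of 0.68 ± 0.15 at 20 and 0.55 ± 0.15 at 60. The smooth muscle genes varied more from slide to slide. Their differences at 20 mg/kg/day against 0 ran from 0.39 to 0.80 on slide 1, from -0.24 to 0.29 on slide 2 and from -0.04 to 0.56 on slide 3. At 60 against 0 all 7 were higher on slide 1, by 0.12 to 0.52, and all 7 lower on slide 2, by -1.03 to -0.13. The single control on slide 2 was replicate 3, 1 of the 5 arrays low in Cyp17a1.

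Across animals of the same dose the levels of the smooth muscle genes varied together. In deviations from the dose means, Pearson's r between 2 of the 7 genes was lowest for Myh11 with Des, at 0.52. It was highest, at 0.96, for Actg2 with Des and for Tagln with Cnn1, and the median was 0.81 over 21 pairs. These correlations are descriptions over arrays that share their 75th percentile scaling, and 28 pairs were computed with Tnnt2. Over all arrays, without regard to dose, r was 0.54 to 0.96 and Spearman's rho 0.71 to 0.95 between the 7 genes. Without the 2 arrays farthest from the median of 1 gene, chosen anew for each pair, r was 0.54 to 0.95. It was 0.54 to 0.94 over the 15 arrays with Cyp17a1 above 0.

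The correlations of Tnnt2 with the 7 genes were mostly lower than those among them. In deviations from dose means its r was 0.29 with Acta2, 0.41 with Myh11, 0.48 with Myl9, 0.51 with Actg2, 0.53 with Tagln and Cnn1 and 0.58 with Des. Over all 20 arrays r was 0.34 to 0.62 and rho 0.32 to 0.52, and these and the following values keep the dose differences. Without the 2 arrays farthest from the smooth muscle gene's median, chosen anew for each pair, r was 0.11 to 0.59. Over the 15 arrays with Cyp17a1 above 0 it was 0.41 to 0.73 with a median of 0.59, a range that overlaps with that of the smooth muscle pairs. Within slides r was 0.17 to 0.67 on slide 1, -0.32 to 0.41 on slide 2 and 0.39 to 0.71 on slide 3, and 5 of the 7 values on slide 2 were below 0.

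**Figure D3:**
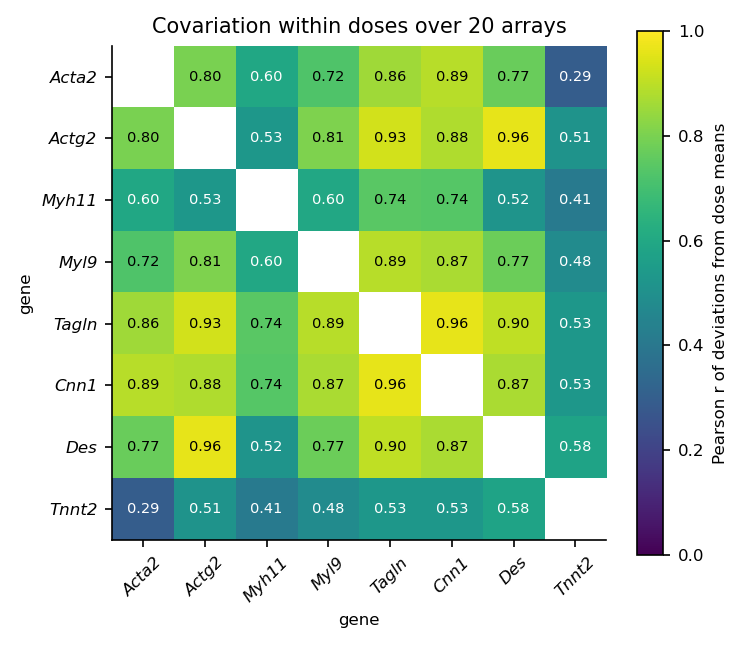
Pearson r between each pair of the 8 genes over 20 arrays, taken on deviations from the dose means, with genes on both axes and r as colour and number. Values between the 7 smooth muscle genes run from 0.52 to 0.96, and those in the Tnnt2 row from 0.29 to 0.58.

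To test the covariation, the Acta2 level of each array was entered as a covariate beside dose, and the slope was tested for all other probes. limma called 123 of 23257 probes at an adjusted p under 0.05, of which 102 had a positive slope, a background of 0.439%. Of the 6 other smooth muscle genes, 4 passed, though only 1 did without control replicate 3 or without replicate 1 at 0.06 mg/kg/day. Cnn1 had a slope of 1.07 ± 0.14 log2 per log2 of Acta2 (SE, adjusted p = 0.00904), Tagln 1.03 ± 0.16 (adjusted p = 0.0148), Actg2 1.55 ± 0.29 (adjusted p = 0.0250) and Des 1.14 ± 0.23 (adjusted p = 0.0353), all by limma. A slope of 1 is an equal fold in both genes, which lay within 1 SE of the slopes of Tagln, Cnn1 and Des and below that of Actg2 by more than its SE. With each array left out in turn, the highest adjusted p in limma was 0.0325 for Cnn1, 0.0657 for Tagln, 0.114 for Actg2 and 0.152 for Des.

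Myl9, with a slope of 0.69 ± 0.17 (adjusted p = 0.070), and Myh11, with 0.47 ± 0.16 (adjusted p = 0.174), did not pass in limma. With slide as a block Myl9 passed too, at an adjusted p of 0.0244, and 439 probes were called. The slope of Tnnt2 on Acta2 was 0.23 ± 0.19 (limma, adjusted p = 0.635), and 0.28 ± 0.16 with slide as a block. Over the 15 arrays with Cyp17a1 above 0, none of the 6 smooth muscle genes passed and 1 probe was called in all, though the slopes of Tagln and Cnn1 were 0.95 and 1.08. Those of Actg2 and Des were 0.82 and 0.67 there.

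Tnnt2 as the covariate called 1 of 23257 probes, with a positive slope, 0.0043% of all. That probe, A_64_P088136, has a transcript that the tables used here do not name. Probes of Tnnt2 were left out of this fit by gene symbol only. Whether A_64_P088136 reads a transcript of Tnnt2 itself was not tested, so it cannot be taken as another gene. The slope of A_64_P088136 was 0.80 ± 0.10 (limma, adjusted p = 0.00527). No probe was called over the 15 arrays with Cyp17a1 above 0, without replicate 5 at 0.06 mg/kg/day or without replicate 2 at 60, where limma's lowest adjusted p was 0.219, 0.650 and 0.0507. The probe averaged -0.76 in controls, -0.70 with 0.06 mg/kg/day, -0.08 with 20 and -0.12 with 60. All 5 arrays at 20 and all 6 at 60 exceeded every control, and the share of all probes doing so was not counted. It was named for its slope on Tnnt2, which was chosen by its dose differences, so these levels are a description. No smooth muscle gene passed, but all 7 slopes on Tnnt2 were positive, from 0.38 ± 0.30 for Acta2 to 1.27 ± 0.52 for Actg2, with limma's adjusted p from 0.202 to 0.571. The median slope over all probes was -0.09.

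**Figure D4:**
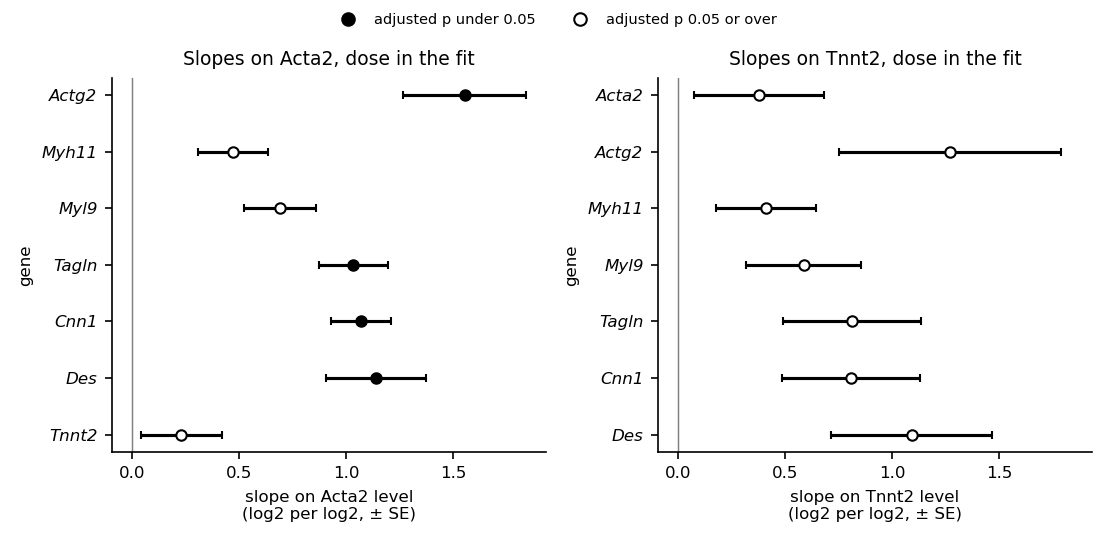
Slope of each gene on the Acta2 level (left) and on the Tnnt2 level (right) of the array, in log2 per log2 with its SE as bars, from limma fits with dose; genes run down the y axis and filled points have an adjusted p under 0.05. Actg2, Tagln, Cnn1 and Des are filled in the Acta2 panel, at 1.03 to 1.55, and no point is filled in the Tnnt2 panel.

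Further genes of the contractile apparatus were set against Acta2 in the same fit. Of 29 other smooth muscle genes listed, 26 were on the array and 25 passed the filter, of which 20 had a positive slope on Acta2 and 4 passed with one, against 0.439% of all probes. Tpm2 and Tpm1, tropomyosins that lie along the actin filament, had slopes of 1.41 ± 0.22 and 0.78 ± 0.13 (limma, adjusted p = 0.0148 for both). Pln, phospholamban, the regulator of the calcium pump, had 0.85 ± 0.17 (limma, adjusted p = 0.0304), and Mylk, the kinase that phosphorylates Myl9, had 0.66 ± 0.14 (limma, adjusted p = 0.0358). With each of 20 arrays left out in turn, Tpm2 and Tpm1 passed in 18 of the fits, Pln in 13 and Mylk in 10. Over the 15 arrays with Cyp17a1 above 0 none of the 4 passed, with slopes of 0.85, 0.47, 0.96 and 0.80. The median slope of the 25 was 0.27, against 0.01 over all probes. Pdlim3 was well above background on no array.

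The same 25 genes showed the dose pattern of the 7 only in part. At 20 mg/kg/day against 0, 20 of 25 were above 0 with a median of 0.14, and at 60 against 0, 13 of 25 with a median of 0.00. Of all probes, 57.9% and 39.7% stood above 0, with medians of 0.03 and -0.04. None of the 25 genes passed in either comparison. The largest differences at 20 mg/kg/day were 0.49 ± 0.35 for Tpm2, 0.44 ± 0.22 for the calcium store protein Casq2, 0.42 ± 0.16 for Kcnmb1, the beta subunit of the calcium-activated potassium channel, and 0.41 ± 0.23 for Pln. Myocd, the coactivator that drives smooth muscle genes, stood at -0.28 ± 0.16 and Cav1, of the caveolae, at -0.18 ± 0.11. At 60 mg/kg/day the largest were 0.21 ± 0.21 for Casq2, 0.20 ± 0.15 for the intermediate filament gene Synm, 0.12 ± 0.16 for Kcnmb1 and 0.09 ± 0.34 for Tpm2. Itga8, an integrin, stood at -0.39 ± 0.30 and Cav1 at -0.32 ± 0.10 there.

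Tnnt2 also belongs with genes of striated muscle, and 20 of the 27 others on the array passed the filter. Of these, 14 stood above 0 at 20 mg/kg/day against 0 with a median of 0.11, and at 60 it was 6 of 20 with a median of -0.15. The shares over all probes were 57.9% and 39.7%, with medians of 0.03 and -0.04. None of the 20 genes passed. Ldb3, a protein of the Z disc, was the 1 striated gene with a called slope on Acta2, 2.01 ± 0.44 (limma, adjusted p = 0.0468), and it passed in 4 of the 20 fits with an array left out and not over the 15 arrays. Myh1, Myh2, Myl2, Myl3, Mybpc3 and Nppa, defining genes of skeletal or cardiac muscle, were well above background on no array. In deviations from dose means, the mean level of the striated list had r of -0.06 with Tnnt2 and -0.50 with the smooth muscle mean. For the list of other smooth muscle genes, r was 0.28 with Tnnt2 and 0.90 with the smooth muscle mean.

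The other troponins are the nearest relatives of Tnnt2, and all 7 were well above background on all arrays. Tnni1, the slow skeletal troponin I, averaged -2.91 ± 0.30 (SD) in controls, -2.50 ± 0.51 with 0.06 mg/kg/day, -2.23 ± 0.40 with 20 and -2.23 ± 0.34 with 60, so its difference from 0 was 0.68 ± 0.23 (SE) at 20 and 0.68 ± 0.22 at 60. Tnnt1, the slow skeletal troponin T, stood at 0.51 ± 0.22 and 0.49 ± 0.21 at these doses. All these groups overlapped with the controls. Tnnt3, the fast skeletal troponin T, stood at 0.69 ± 0.24 at 20 and 0.06 ± 0.23 at 60 mg/kg/day. Tnni3, the cardiac troponin I, stood at 0.11 ± 0.22 and 0.36 ± 0.21. In the 20 mg/kg/day group Tnnc2 stood at 0.28 ± 0.14, Tnnc1 at 0.21 ± 0.20 and Tnni2 at 0.10 ± 0.17, and at 60 at 0.14 ± 0.13, -0.17 ± 0.19 and -0.15 ± 0.16.

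None of these troponins had a called slope on Tnnt2. The largest slopes were 0.70 ± 0.30 for Tnni1 and 0.70 ± 0.27 for Tnnt1 (limma, adjusted p = 0.262 and 0.229), and Tnni2 had -0.55 ± 0.21 (limma, adjusted p = 0.22). Within the striated list the lowest values came from the cardiac myosins, with Myh6 at -1.23 ± 1.15 with 20 mg/kg/day and -1.17 ± 1.1 with 60, and Myh7 at -1.14 ± 1.13 and -1.1 ± 1.08. Their SE was about as large as the difference, and the 2 sequences are close enough that their probes may read each other's transcript.

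By likeness to Tnnt2, 6 genes outside the set came first. Over deviations from dose means on 20 arrays, among 10959 named genes well above background throughout, r was 0.82 for Trpc4ap, 0.81 for Mmp24, 0.77 for Pomt2, 0.77 for Cdk16, 0.75 for Sephs1 and 0.75 for Tmed2. Of the 7 smooth muscle genes, Des came closest to Tnnt2 at rank 148 and Acta2 was farthest at rank 1825. For the mean of the 7 smooth muscle genes, r was 0.94 for Tpm2, 0.94 for Mustn1, 0.93 for Fbp2, 0.93 for Dact3, 0.92 for Igh-6l1 and 0.91 for Wfdc1. Tnnt2 came at rank 1304 there with r of 0.53. Trpc4ap had an SD of only 0.09 log2 over the arrays, against 0.40 for Tnnt2.

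The 5 arrays low in Cyp17a1 were among the highest for most of the smooth muscle genes. On them Actg2 lay at 3.00 to 3.50, and on the other 15 arrays at 1.15 to 2.50, so the 5 were the 5 highest. For Des they lay at -0.18 to 0.58 against -1.34 to -0.16, and 4 of the 5 were among the 5 highest. The same held for 4 of the 5 with Myl9, Tagln and Cnn1, for 3 with Acta2 and for 2 with Myh11, whose highest array was control replicate 5. For Tnnt2, 1 of the 5 was among the 5 highest, and they lay at 1.21 to 1.73 against 0.32 to 1.97. The part of this split in the smooth muscle levels was not tested beyond leaving the 5 arrays out.

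**Figure D5:**
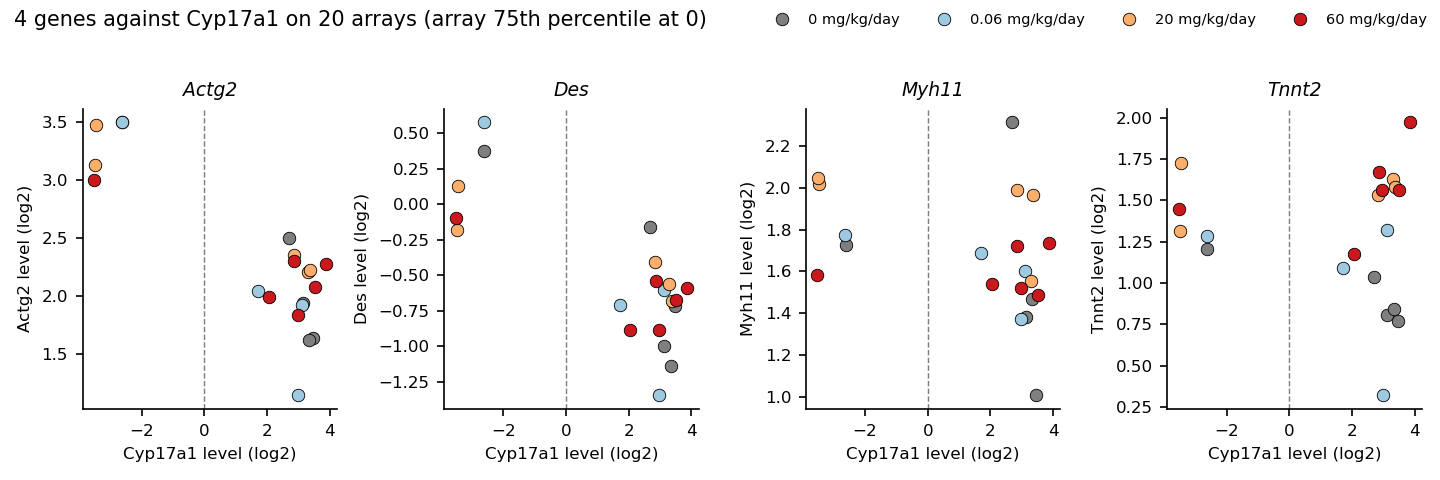
Log2 level of Actg2, Des, Myh11 and Tnnt2 (y axes) against that of Cyp17a1 (x axes), 1 point per array, coloured by dose, with a dashed line at 0. The 5 arrays left of the line lie at 3.00 to 3.50 for Actg2, above all others, and at 1.21 to 1.73 for Tnnt2, within the range of the rest.

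Without these 5 arrays, 4 remained among the controls, 3 with 0.06 mg/kg/day, 3 with 20 and 5 with 60, and Tnnt2 and all 7 smooth muscle genes stood above 0 at 20 mg/kg/day. Tnnt2 stood at 0.72 at 20 and 0.73 at 60 against 0. At 20 mg/kg/day against 0 the smooth muscle genes ran from 0.20 for Des to 0.44 for Acta2, with Actg2 at 0.33 and Tagln at 0.28. At 60 they ran from -0.01 for Acta2 to 0.44 for Myl9, with Actg2 at 0.17 and Tagln at 0.12. The medians of the 7 were 0.33 and 0.08.

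Markers of other cell types moved with these levels to different degrees, and their part in the results was not tested. The mean level of 10 fibroblast and matrix genes lay at 2.02 to 2.55 in controls, 1.80 to 2.66 with 0.06 mg/kg/day, 2.47 to 2.83 with 20 and 2.14 to 2.61 with 60, and in deviations from dose means over 20 arrays its r was 0.78 with the smooth muscle mean and 0.55 with Tnnt2. All 10 stood above 0 at 20 mg/kg/day, with a median of 0.42, and 9 of 10 at 60, with 0.21. For this list and those below, the shares over all probes were 57.9% at 20 and 39.7% at 60. Col1a1, Pdgfra and Fbn1, named for passing the test, had slopes on Acta2 of 0.97 ± 0.20, 0.66 ± 0.14 and 0.52 ± 0.11 (limma, adjusted p = 0.0421, 0.0428 and 0.0353). They passed in 5, 5 and 9 of the 20 fits with an array left out, and in none over the 15 arrays with Cyp17a1 above 0. Col1a1 encodes a chain of type I collagen, Fbn1 the microfibril protein fibrillin 1 and Pdgfra a growth factor receptor of mesenchymal cells.

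For the 8 macrophage genes the mean level lay at -0.90 to -0.11 in controls, -0.98 to 0.12 with 0.06 mg/kg/day, -0.59 to 0.11 with 20 and -0.75 to 0.35 with 60, with r of 0.44 and 0.14, in deviations from dose means here and below. All 8 stood above 0 at both 20 and 60 mg/kg/day, with medians of 0.45 and 0.51. The 10 endothelial genes ran the other way, with r of -0.49 and -0.42 and 0 of 10 above 0 at either dose. Pericyte genes, of the contractile cells around capillaries, had r of -0.38 with the smooth muscle mean and -0.22 with Tnnt2. The 8 oviduct epithelium genes on the array, which would mark attached oviduct, had r of -0.33 and -0.42. Theca genes, whose list holds Cyp17a1, had r of -0.65 and -0.08, granulosa genes -0.42 and -0.03, and luteal genes -0.56 and -0.30. Surface epithelium and mesothelium genes had 0.58 and 0.15, adipocyte genes 0.06 and -0.04, and immediate early genes, which respond quickly to stimuli, -0.27 and -0.31. No gene of these lists other than the 3 named passed on the Acta2 slope, and none passed by dose or on the Tnnt2 slope.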

How the data were processed

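Ovarian RNA was hybridised to 1-colour Agilent arrays with Cy3, 100 ng per array, and groups were taken from the labelled dose. Per the file headers, spot intensity was extracted with Feature Extraction 11.5.1.1 (protocol GE1_1105_Oct12, scanner G2600D) on a design of build rn4; the processed signal is background-corrected. The authors' deposited table of log2 values served as an alternative; deviations from probe means correlated with the scanner values at r of 0.946 to 0.991, its column medians lay at -0.07 to 0.08, and the baseline of its centring is unknown. Per the labels, the submitters dropped replicate 4 of the 0.06 mg/kg/day group.

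Levels are log2 processed signal minus the 75th percentile of non-control spots, which was 1158 to 1737; 74.8% to 83.4% of spots were well above background. The number of arrays limits the precision. Spots of a probe were averaged, outlier spots and control spots were left out, and 23258 of 30335 probes well above background on at least 4 arrays were tested with limma 3.58.1 in R 4.3.3, dose groups in 1 fit over 20 arrays, Benjamini-Hochberg at 0.05. Covariate fits added the Acta2 or Tnnt2 level. p-values measure the spread between animals. The fits were tested on simulated data. Symbols came from RefSeq's GRCr8 table through the probe's transcript. The brightest probe stood for a gene.

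Named genes were the 8 members, the 4 highest and 2 lowest of the smooth and striated muscle lists at 20 and 60 mg/kg/day among genes well above background on all arrays, and the 6 of highest r to Tnnt2 and to the smooth muscle mean; the troponins, Cyp17a1, the called probe and the called list genes were named after their values were seen. Members and lists were chosen with earlier results of these data known. Replicate numbers did not pair samples: over 27 same-numbered pairs r of deviations was -0.31 to 0.35, median 0.03. normexp used median spot and background signals in place of the mean. matplotlib 3.10.9 under Python 3.11.15 drew the figures.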

Additional observations from a re-analysis of the deposited data

Results flagged for a closer look

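Of 40 groups of member probe and dose, 2 held an array far from the others by Dixon's criterion, where chance flags about 1 in 20 groups. For the second Actg2 probe at 60 mg/kg/day, replicate 5 lay at 2.98, above the next array at 2.29 and the lowest at 1.88; it is 1 of the 5 arrays low in Cyp17a1. For the brighter Myh11 probe at 20 mg/kg/day, replicate 3 lay at 1.55, below the next array at 1.97 and the highest at 2.05.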

How the results depend on the processing

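The counts by dose stayed at 0 under all alternatives run, which were quantile normalization, normexp background correction, both other filters on dim probes, the deposited values, slide as a fixed or random block, the smooth muscle mean as a covariate, each array left out and the 15 arrays with Cyp17a1 above 0 (chosen after seeing the data), except that 2 probes were lower at 60 against 20 mg/kg/day with the replicate block. Tnnt2 at 20 and 60 mg/kg/day against 0 kept its direction in 33 of 33 settings, at 0.49 to 0.75 and 0.23 to 0.98. The settings use the same 20 arrays or parts of them, and these differences chose Tnnt2, so the kept direction is a description. Acta2 as covariate called 439 probes with slide as a block, 191 with only probes well above background on all 20 arrays, 1 over the 15 arrays and 0 with the replicate block. With each array left out it called 5 to 1336: 42, 78, 5 and 1336 without control replicates 1, 2, 3 and 5, 18 and 56 without replicates 1 and 5 at 0.06, 64, 388 and 38 without replicates 1, 2 and 5 at 20, and 54, 79 and 35 without replicates 1, 3 and 5 at 60 mg/kg/day. Of the 6 smooth muscle genes, 1 to 5 passed in those fits and 0 with the replicate block. Tnnt2 as covariate called 0 with the replicate block and over the 15 arrays, and 0 to 3 with each array left out: 0 without replicate 5 at 0.06 or replicate 2 at 60, 2 without replicate 2 at 0.06 or replicate 6 at 60, and 3 without replicate 4 at 20 mg/kg/day. Slide called 2696 probes with normexp and 3614 to 5212 with each array left out. The causes of these changes were not tested. All member probes were well above background, and whether depth of signal limited their levels was not tested.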
